A study of Mus musculus with 4 samples.

Results

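The genes of the cytosolic ribosome's own proteins were described in otic vesicles, the epithelial sacs that form the inner ear, of mouse embryos. Members were the protein-coding genes of the deposited table whose symbol is that of a large subunit protein (Rpl and a number, Rplp0 to Rplp2) or a small subunit protein (Rps and a number), with an a, x, y or l suffix allowed and pseudogenes left out. There were 82 such genes among 34866 in all, 51 of the large and 31 of the small subunit, lying on 19 chromosomes. RNA was sequenced from Meis2 mutant embryos (libraries KO 1 and KO 2) and wild-type embryos (WT 1 and WT 2), all of strain C57/BL6 at embryonic day 11.5. Titles call the mutants knockouts, but the allele, the embryos per library and whether libraries came from separate litters are not stated in the labels. What a p-value measures is thus only how far these libraries differ, and part of that may be technical. Values are gene-level TPM (a level per transcript length, scaled to a fixed total per library), so levels can be compared between genes, but the depth of each library is unknown.

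A ribosome joins a small subunit, which reads the mRNA, to a large subunit, which forms the peptide bond, and each protein is in general present as a single copy per subunit. The genes are among the most strongly transcribed of growing cells, and their mRNAs begin with a run of pyrimidines (the 5' terminal oligopyrimidine, or TOP) through which translation is controlled by mTOR signalling. In mammals most of these genes have processed pseudogenes, intronless copies of the mRNA put back into the genome elsewhere. Where a copy is nearly identical to its parent, short reads that lie in the shared sequence do not show from which of them they came.

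The libraries carried otic epithelial RNA: Oc90, an otoconial matrix gene of the otic epithelium, was at 561 and 602 TPM in KO 1 and KO 2, against 912 and 724 TPM in WT 1 and WT 2. Of 10 otic epithelial markers 9 were lower in KO, with sums of 1292 and 1387 TPM in KO 1 and KO 2, against 1717 and 1563 TPM in WT 1 and WT 2. All 8 markers of the surrounding mesenchyme were higher in KO, with sums of 657 and 467 TPM in KO 1 and KO 2, against 486 and 389.7 TPM in WT 1 and WT 2. No marker of either list was at 0 in all libraries. Meis2 itself was at 73.2 and 76.6 TPM in KO 1 and KO 2, against 78.98 and 88.7 TPM in WT 1 and WT 2, a log2 difference of -0.16 (SE 0.087; limma adjusted p = 1.00). A gene-level value does not show whether an exon is missing, so it does not check the genotype.

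The sequences that follow show how alike some members and their copies are. A copy was any other gene of the table sharing at least 25% of its words of 31 bases with a member's coding transcripts. This gave 563 copies, 138 of them at a mean of at least 1 TPM. The figures call all 563 copies near-identical, though only 90 of them shared at least 80% of their words. The 40 copies above 100 TPM all lay on another chromosome than their parent, and 17 of them had no mismatch to the parent's coding sequence over the aligned bases; the median identity was 99.7% and the lowest 97.5%. Rps13, a small subunit protein gene on chromosome 7, is shown from coding position 340 to 429 beside Rps13-ps1 at chr8:87048059-87048148 (plus strand) and Rps13-ps2 at chr7:88530470-88530559 (minus strand), both from GRCm38 with the GENCODE M21 annotation. Capitals mark bases that differ from Rps13.
Rps13: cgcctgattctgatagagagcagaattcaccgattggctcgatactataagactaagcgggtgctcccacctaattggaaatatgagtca
Rps13-ps1: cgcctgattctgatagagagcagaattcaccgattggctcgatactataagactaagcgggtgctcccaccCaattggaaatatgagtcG
Rps13-ps2: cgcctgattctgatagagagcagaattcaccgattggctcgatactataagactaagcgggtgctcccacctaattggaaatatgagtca
These 2 mismatches were the only ones between Rps13-ps1 and the whole Rps13 coding sequence, so a read within the coding sequence that covers neither of them matches both genes. Rpl5, on chromosome 5, and the pseudogene Gm15500 at chr7:114706104-114706163 (minus strand) did not differ at any aligned base, and their coding positions 1 to 60 are shown.
Rpl5: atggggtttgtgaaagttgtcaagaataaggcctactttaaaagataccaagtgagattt
Gm15500: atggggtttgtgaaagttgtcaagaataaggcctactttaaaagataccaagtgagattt

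Some annotated start sites of members carry the pyrimidine run. A RefSeq table of GRCm38.p6 promoters, from 250 bases before to 50 after the start, held 62 of the 82 members. A start with C followed by at least 4 of C or T was found in 13 of 62 members (20.97%), against 2.72% of all genes there (16455 coding genes). The run had to begin at the annotated start base itself. Runs beginning at other bases were not counted, so this is not the share of mRNAs with a TOP. Each line gives 15 bases before the annotated start and 20 from it, with the pyrimidine run from the start in capitals. Shown are the growth-regulated Rps6, the Hox-linked Rpl38, Rpl15 and Rpl35a of the large subunit, Rps10 of the small subunit, and the paralog Rps27l, whose annotated start has no such run. The windows lie for Rps6 at chr4:86857348-86857382 (minus strand), Rpl38 at chr11:114668565-114668599 (plus strand), Rpl15 at chr14:18270967-18271001 (minus strand), Rpl35a at chr16:33056467-33056501 (plus strand), Rps10 at chr17:27635225-27635259 (minus strand) and Rps27l at chr9:66946071-66946105 (plus strand).
Rps6: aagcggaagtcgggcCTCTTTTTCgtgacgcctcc
Rpl38: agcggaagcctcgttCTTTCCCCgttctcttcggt
Rpl15: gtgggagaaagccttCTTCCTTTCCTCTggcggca
Rpl35a: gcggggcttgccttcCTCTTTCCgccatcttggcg
Rps10: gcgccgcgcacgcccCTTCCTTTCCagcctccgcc
Rps27l: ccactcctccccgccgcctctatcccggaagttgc
The letters CTCTTT, searched on the gene's strand in the 100 bases around the start after the sequences had been seen, were in 19 of 62 members (30.6%), against 4.21% of all genes there. In the whole 300-base windows on both strands, the ETS factor core CCGGAA was in 34 of 62 members (54.8%), against 21.6% of all genes there. The YY1 core AAGATGG was in 10 of 62 members (16.1%), against 7.28% of all genes there, and the GC box GGGCGG in 38 of 62 members (61.3%), against 51.2% of all genes there. TATAAA was in 7 of 62 members (11.3%), against 14.3% of all genes there. TGACAG, the core bound by Meis proteins, was in 9 of 62 members (14.5%), against 20.9% of all genes there. These are matches of letters only.

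Ribosomal protein transcripts were abundant in every library. The filter of a mean of 1 TPM was missed by 3 members, Rpl10l, Rpl3l and Rpl39l, and the other 79 were at 59.7 TPM or more in each library. Leaving out the paralogs Rpl22l1, Rpl7l1 and Rps27l, the means over the 4 libraries ran from 67.5 TPM (Rpl5) to 5064 TPM (Rpl13a), a 75.03-fold range. Summed with their copies the same 76 genes all stood at 1116 TPM (Rpl39) or more, a 4.54-fold range. Among the highest were Rpl13a, also known as a translational silencer in human cells, Rpl41, which encodes the shortest protein of the ribosome, and Rplp1 of the stalk that recruits elongation factors. Rpl13a was at 4726 and 4845 TPM in KO 1 and KO 2, against 5569 and 5116 TPM in WT 1 and WT 2. Rpl41 was at 4064 and 4414 TPM in KO 1 and KO 2, against 4334 and 5090.4 TPM in WT 1 and WT 2. KO lay below WT for Rpl13a, while for Rpl41 KO 2 lay above WT 1.

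The lowest of the tested large subunit genes by its own symbol was Rpl5, whose protein joins 5S rRNA and Rpl11 and binds Mdm2 when ribosome assembly is disturbed. Rpl5 was at 64.99 and 71.2 TPM in KO 1 and KO 2, against 59.7 and 74.1 TPM in WT 1 and WT 2, while Gm15500 was at 1920.4 and 1848 TPM in KO 1 and KO 2, against 2228 and 1909 TPM in WT 1 and WT 2. The pseudogene's value was thus above the gene's in every library, and Rpl5 held 3.30% of the sum with its copies. In all 18 members held under 50% of the sum with their copies. Rpl12 of the stalk base held 3.83%, Rps12 4.59%, Rps27 8.46%, Rpl27 9.34% and Rpl27a 13.3%. Among pseudogenes named for a member, the highest were Rps12-ps3 (mean 3711 TPM), Rps23-ps1 (2662 TPM), Rpl27-ps3 (2167 TPM), Rpl10-ps3 (1983 TPM) and Rpl31-ps8 (1803 TPM); Rps12-ps3 and Rpl10-ps3 are annotated as coding. How reads were divided between genes and copies was not tested.

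**Figure D1:**
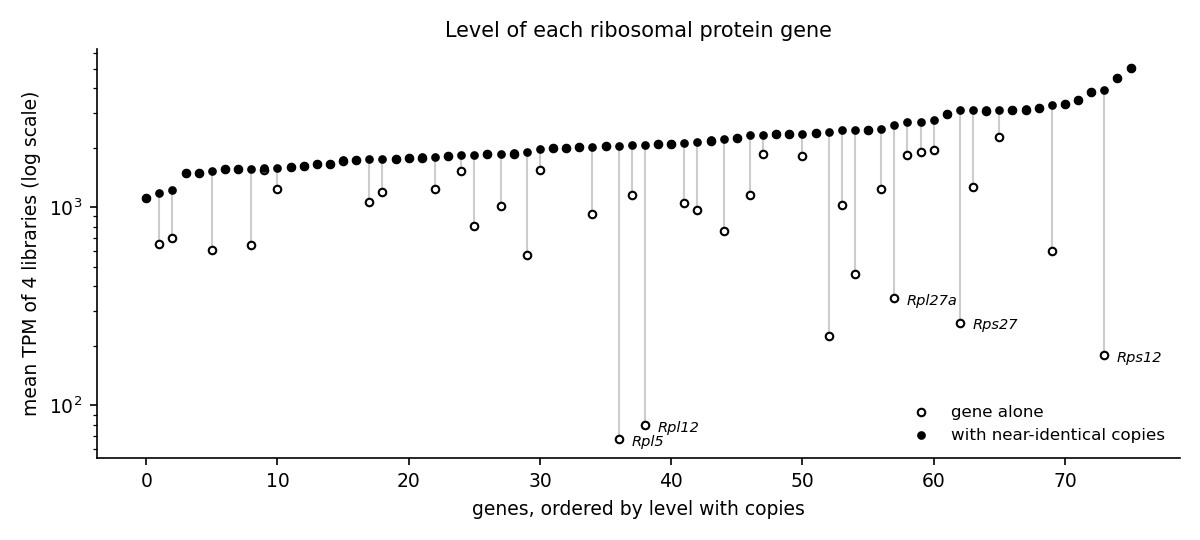
Mean level of 76 ribosomal protein genes over the 4 libraries (vertical axis, TPM on a log scale), ordered by the level summed with near-identical copies; open points are the gene alone, filled points the gene with its copies, and a line joins them. The filled points span a 4.54-fold range and the open points a 75.03-fold range, with Rpl5 and Rpl12 lowest.

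For several members, gene and copy stood in opposite order in different libraries. Rps13 was at 618 and 1412 TPM in KO 1 and KO 2, against 646 and 1587 TPM in WT 1 and WT 2, with Rps13-ps1 at 1212 and 0 TPM in KO 1 and KO 2, against 1235 and 0 TPM in WT 1 and WT 2. Both genotypes held a library with the pseudogene listed at 0 and a library with it above the gene. Their sum with the other Rps13 copies was 1835 and 1605 TPM in KO 1 and KO 2, against 1883 and 1661 TPM in WT 1 and WT 2, a log2 difference of -0.043 (SE 0.11). Rps2, near the mRNA entry channel, was at 2466 and 1239.9 TPM in KO 1 and KO 2, against 2513 and 1405 TPM in WT 1 and WT 2. Rps2-ps10 was at 8.21 and 1450.0 TPM in KO 1 and KO 2, against 17.6 and 1612 TPM in WT 1 and WT 2. Again the libraries numbered 1 and 2 differed within each genotype, and the sum with all Rps2 copies was 2488 and 2712 TPM in KO 1 and KO 2, against 2550.0 and 3041 TPM in WT 1 and WT 2.

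Rpl3, a core protein near the peptidyl transferase centre, was at 1102 and 226 TPM in KO 1 and KO 2, against 738 and 239 TPM in WT 1 and WT 2, and Rpl3-ps1 at 780.5 and 1578 TPM in KO 1 and KO 2, against 1209 and 1695 TPM in WT 1 and WT 2. The gene was higher in KO 1 than in any other library, but the sums with copies were 1884 and 1805 TPM in KO 1 and KO 2, against 1948 and 1935 TPM in WT 1 and WT 2, with both KO libraries below both WT libraries. Rps27, a zinc finger protein of the small subunit, was at 361 and 242 TPM in KO 1 and KO 2, against 74.8 and 368 TPM in WT 1 and WT 2, and its intronless relative Rps27rt at 2633 and 2700.3 TPM in KO 1 and KO 2, against 3169 and 2803 TPM in WT 1 and WT 2. WT 1 was the low library for Rps27 and the high library for Rps27rt; the log2 difference was -0.11 (SE 0.072) for the sum and 0.82 (SE 0.78) for Rps27 alone. Rps7, of the small subunit, was at 795 and 1689 TPM in KO 1 and KO 2, against 1036 and 1095 TPM in WT 1 and WT 2. It was highest in KO 2, where its copy Gm6472 on the X chromosome was at 6.18 TPM, against 1305 TPM in KO 1, 1337 TPM in WT 1 and 981 TPM in WT 2.

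Across the 79 tested members, the highest library exceeded the lowest by more than 1.5 times for 12 genes. Each of these 12 had a copy at 1 TPM or more, as did 65 of all 79, so a link between spread and copies was not tested. None of the 14 members without such a copy was among them, and their ratios reached 1.33 at most. Summed with copies, Rpl21 alone passed that ratio, with 1813 and 1009.7 TPM in KO 1 and KO 2, against 1641 and 1817 TPM in WT 1 and WT 2. KO 2 was the low library of the Rpl21 sum, and the other 3 lay close together. The median SE of a log2 difference was 0.095 for members alone and 0.079 with copies summed.

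**Figure D2:**
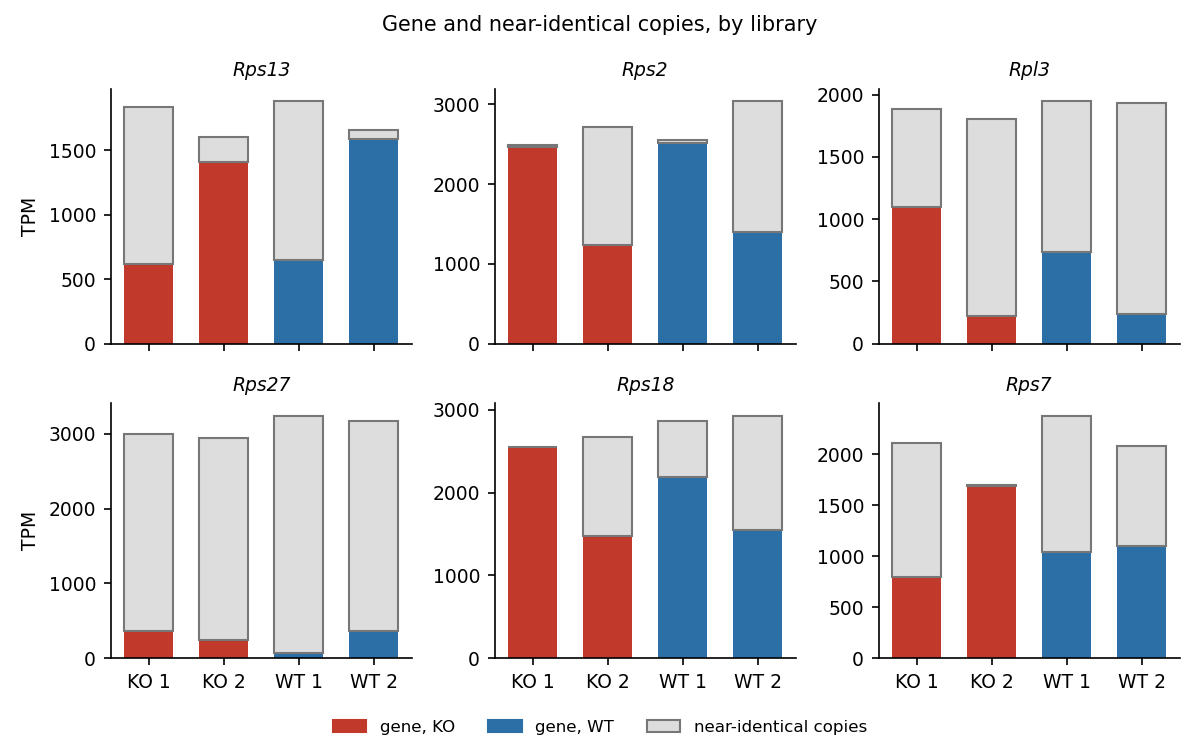
Level (vertical axis, TPM) of 6 ribosomal protein genes (coloured, KO red and WT blue) with their near-identical copies stacked on top (grey), 1 bar per library. The coloured part differs between libraries of the same genotype, as for Rps13 at 618 TPM in KO 1 and 1412 TPM in KO 2, while the full bars differ less, at 1835 and 1605 TPM.

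Ribosomal protein transcripts made up a smaller share of the TPM in Meis2 mutant vesicles. Their sum was also lower under each scaling for which it was computed, which leaves out quantile normalization. The 82 members held 12.5 and 12.4% in KO 1 and KO 2, against 13.2 and 13.3% in WT 1 and WT 2. Both KO libraries lay below both WT libraries, and the mean sums differed by -5.82% (log2 -0.086). Large subunit genes summed to 71672 and 71419 TPM in KO 1 and KO 2, against 74764 and 76356 TPM in WT 1 and WT 2, and small subunit genes to 53683 and 52867 TPM in KO 1 and KO 2, against 57248 and 56689 TPM in WT 1 and WT 2. Neither subunit's groups overlapped, and the differences of the means were -5.31% and -6.48%. The 563 copies summed to 43089 and 42319 TPM in KO 1 and KO 2, against 45486 and 46866 TPM in WT 1 and WT 2, also without overlap. Members and copies together held 16.8 and 16.7% in KO 1 and KO 2, against 17.7 and 17.99% in WT 1 and WT 2. The 14 members with no copy at 1 TPM summed to 31287 and 31229 TPM in KO 1 and KO 2, against 33416 and 34394 TPM in WT 1 and WT 2. This sum, of genes with no such copy, was lower in both KO libraries too (-7.81%).

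With 2 libraries per genotype no exact test of a sum could give a two-sided p below 0.333, and none is given for a sum over members. The within-genotype SD of the summed members was 0.0084 on the log2 scale. In bulk tissue, fewer cells of a type and less RNA per cell cannot be told apart, and of the marker sums given above the otic epithelial ones did not overlap between genotypes, while the mesenchymal ones did. TPM shares depend on what else is in a library: the 13 mitochondrially encoded genes summed to 48491 and 54923 TPM in KO 1 and KO 2, against 47468 and 44046 TPM in WT 1 and WT 2, and 7 erythroid markers to 9125 and 10205 TPM in KO 1 and KO 2, against 7315 and 16962 TPM in WT 1 and WT 2. With TPM rescaled over all genes other than members, mitochondrial and haemoglobin genes, the log2 difference of the member sum was -0.097, and with median-of-ratios scaling -0.12. Without WT 2, the library with the highest erythroid sum, it was -0.081. The part of cell composition in the difference was not tested.

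**Figure D3:**
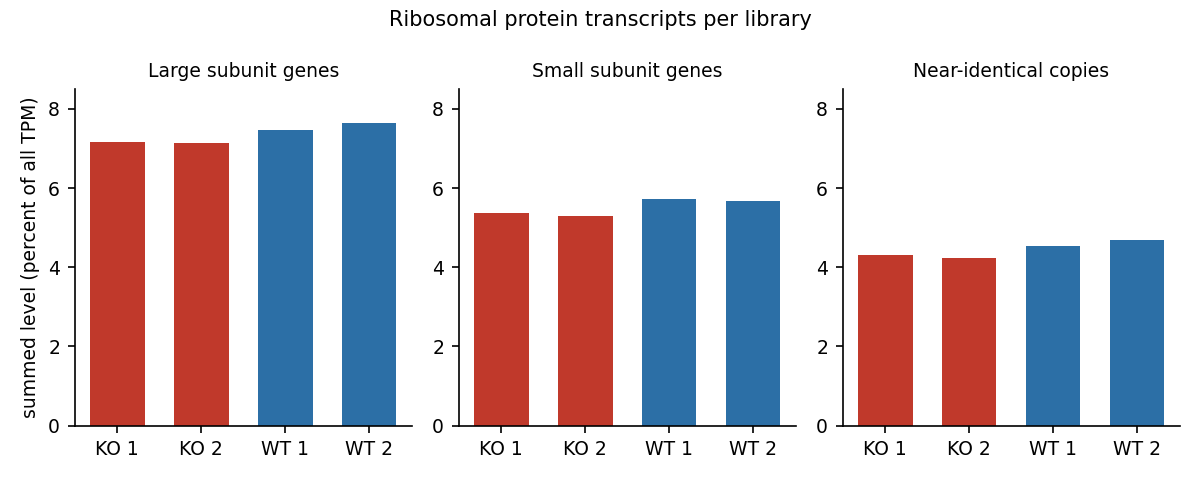
Summed level of large subunit genes, small subunit genes and near-identical copies (vertical axis, percent of all TPM) in each library, KO red and WT blue. In each panel both KO bars are lower than both WT bars, with 71545 TPM in KO and 75560.2 TPM in WT on average for the large subunit.

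Gene by gene, most members were slightly lower in KO and no difference passed the adjustment. Of the 79 tested members 65 were lower and 14 higher in KO, so 82.3% were lower, against 38.4% of all 14496 genes tested. The median log2 difference was -0.090 over members and 0.035 over all genes. Both KO libraries were below both WT libraries for 32 members (40.5%), against 10.5% of all genes, and for no member were both above. Among 84 other genes at a mean of 1000 TPM or more, neither members nor copies, 48 were lower (57.1%). Both KO libraries were below both WT libraries for 16 of the 84, and the median over the 84 was -0.015. The 84 included the 13 mitochondrially encoded genes, of which 12 were higher and 1 lower in KO (median 0.21). The limit of 1000 TPM was chosen after seeing the data, and the difference from the members was not tested. The limma test with Benjamini-Hochberg adjustment over all genes called 0 members (smallest adjusted p = 1.00) and 0.0% of all genes. At an unadjusted p under 0.05 it passed 3 members (3.80%), all lower, against 3.5% of all genes in either direction, 1.41% lower and 2.09% higher, so the share in either direction is near the background. The count was 1 member with quantile normalization and 0 without the mean-variance trend. The shares of all genes passing in these 2 fits are not given, so these counts cannot be read against a background. Quantile normalization gave 56 members lower and 23 higher with 49.8% of all genes lower, and median-of-ratios scaling 69 and 10 with 49.3%. Leaving out WT 2 gave 59 and 20, for which the share of all genes is not given.

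The 3 members were Rps20, Rps9 and Rpl10. Rps20 (ENSMUSG00000028234.6, chr4:3831334-3835665, GRCm38), a small subunit gene whose mutation darkens the skin of mice, was at 853 and 858 TPM in KO 1 and KO 2, against 986 and 995 TPM in WT 1 and WT 2. The libraries of each genotype lay close together and the groups did not overlap, a log2 difference of -0.21 (SE 0.067; limma adjusted p = 1.00). With its copies, Rps20 summed to 1887 and 1780.2 TPM in KO 1 and KO 2, against 2103 and 2269 TPM in WT 1 and WT 2, and the difference was -0.25 (SE 0.081). Rps9 (ENSMUSG00000006333.14, chr7:3703993-3706897), also of the small subunit, was at 1982 and 2031 TPM in KO 1 and KO 2, against 2290.0 and 2374 TPM in WT 1 and WT 2. Both KO libraries were below both WT libraries, a log2 difference of -0.22 (SE 0.079; limma adjusted p = 1.00). Rps9 held 99.7% of the sum with its copies. Rpl10 (ENSMUSG00000008682.13, chrX:74270812-74273135), whose protein joins the large subunit late and lies near the peptidyl transferase centre, was at 442 and 412 TPM in KO 1 and KO 2, against 498 and 482 TPM in WT 1 and WT 2. Its difference was -0.20 (SE 0.072; limma adjusted p = 1.00). Rpl10 held 18.7% of its sum, however, and the sums, 2527 and 2313 TPM in KO 1 and KO 2, against 2611 and 2349.8 TPM in WT 1 and WT 2, overlapped between genotypes.

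Next in order of p were Rpl36a and Rpl15 of the large subunit. Rpl36a (ENSMUSG00000079435.9, chrX:134585654-134588062) was at 1072 and 1090.5 TPM in KO 1 and KO 2, against 1284 and 1198 TPM in WT 1 and WT 2, a log2 difference of -0.20 (SE 0.077; limma adjusted p = 1.00). Rpl15 (ENSMUSG00000012405.16, chr14:18267823-18271391) was at 882 and 1007 TPM in KO 1 and KO 2, against 1121 and 1073 TPM in WT 1 and WT 2, a difference of -0.22 (SE 0.095; limma adjusted p = 1.00). Neither overlapped by its own symbol, but with copies the Rpl36a sums were 2396 and 2161 TPM in KO 1 and KO 2, against 2318 and 2385 TPM in WT 1 and WT 2, and these overlapped. The Rpl15 sums were 1602 and 1832 TPM in KO 1 and KO 2, against 2032 and 2002 TPM in WT 1 and WT 2, without overlap.

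The 14 members that were higher in KO all had a copy at 1 TPM or more, as did 65 of all 79 tested members. With copies summed, 13 of the 14 were lower, as were 77 of all 79. The 14 were picked by their own high values in KO, so this is no test of the part of copies. Those with the smallest p among the 14 were Rps27, Rpl34, Rpl21, Rpl12 and Rpl35a. Rpl34 was at 694 and 1033 TPM in KO 1 and KO 2, against 759 and 745 TPM in WT 1 and WT 2, high in KO 2, and its log2 difference was 0.17 (SE 0.20; limma adjusted p = 1.00). Rpl34-ps1 was at 1191 and 710.2 TPM in KO 1 and KO 2, against 1061 and 1162 TPM in WT 1 and WT 2, low in KO 2, and the difference of the sum was -0.039 (SE 0.078). Rpl21 was at 518 and 881 TPM in KO 1 and KO 2, against 718 and 476 TPM in WT 1 and WT 2, a difference of 0.21 (SE 0.33), against -0.35 (SE 0.29) for the sum. Rpl12 was at 77.3 and 85.5 TPM in KO 1 and KO 2, against 68.2 and 85.98 TPM in WT 1 and WT 2, with overlapping groups, and its difference of 0.085 (SE 0.14) stood against -0.085 (SE 0.072) for the sum. Rpl35a, mutated in some patients with Diamond-Blackfan anaemia, was at 1907 and 1334 TPM in KO 1 and KO 2, against 1403 and 1549 TPM in WT 1 and WT 2, high in KO 1, with 0.11 (SE 0.19) alone and -0.035 (SE 0.079) summed.

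With copies summed, 77 of the 79 were lower in KO, and 34 (43.04%) had both KO libraries below both WT libraries, against 10.5% of all genes in that fit. The median log2 difference was -0.083. The exceptions were Rpl13 and Rps12, each near 0: Rps12 summed to 3688 and 4111 TPM in KO 1 and KO 2, against 3718 and 4062 TPM in WT 1 and WT 2, a difference of 0.0028 (SE 0.098). No sum passed the adjustment, and 2 (Rps20 and Rps9) were at an unadjusted p under 0.05 (2.53%, all lower, against 3.52% of all genes in either direction and 1.39% lower). All 14 members without a copy at 1 TPM were lower, with a median of -0.090. Among them, Rps3 was at 1534 and 1538 TPM in KO 1 and KO 2, against 1664 and 1718 TPM in WT 1 and WT 2. Rpl4 was at 1625 and 1600.1 TPM in KO 1 and KO 2, against 1705 and 1721 TPM in WT 1 and WT 2. These examples were chosen after their values were seen, and in both the KO libraries lay below the WT libraries. That held for 7 of the 14, and in the others the groups overlapped.

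**Figure D4:**
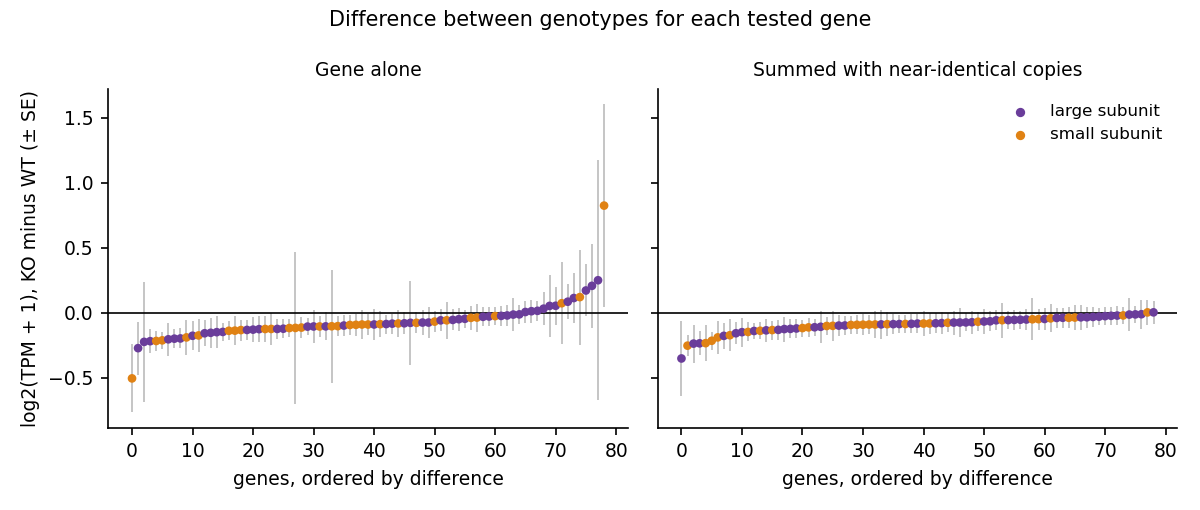
Log2(TPM + 1) difference, KO minus WT, of each of the 79 tested genes (points, with SE as bars), ordered by size, for the gene alone (left) and summed with near-identical copies (right); purple is the large and orange the small subunit. On the left 65 points are below 0 and the range is -0.51 to 0.82; on the right 77 are below 0 and the range is -0.35 to 0.0033.

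Members of both subunits were mostly lower. Of 48 tested large subunit genes 37 were lower, 19 with both KO libraries below both WT libraries, with a median log2 difference of -0.079. Of 31 small subunit genes 28 were lower, 13 of them without overlap, with a median of -0.10. Over all genes tested, 38.4% were lower and 10.5% had both KO libraries below both WT libraries. The difference between the subunits was not tested. The large subunit's share of the members' sum was 57.2 and 57.5% in KO 1 and KO 2, against 56.6 and 57.4% in WT 1 and WT 2, with overlapping groups.

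Members with roles or mutant phenotypes of their own were mostly lower as well. Of 10 such genes 8 were lower, against 38.4% of all genes tested. Rpl38, which is mutated in Tail-short mice and needed for translation of some Hox mRNAs, was at 1704 and 1926 TPM in KO 1 and KO 2, against 1768 and 2060.0 TPM in WT 1 and WT 2, with overlapping groups and a log2 difference of -0.075 (SE 0.12). Rpl24, mutated in Belly spot and tail mice, was at 1552 and 1549 TPM in KO 1 and KO 2, against 1578 and 1589.6 TPM in WT 1 and WT 2, a difference of -0.031 (SE 0.072). The Rpl24 groups did not overlap, yet the difference was smaller than its SE. Rps19, mutated in Diamond-Blackfan anaemia and in a dark-skinned mouse, was at 1673 and 1670.2 TPM in KO 1 and KO 2, against 1722 and 1838 TPM in WT 1 and WT 2, a difference of -0.090 (SE 0.079). Rps6, the target of S6 kinases, was at 1817 and 1755 TPM in KO 1 and KO 2, against 1859 and 1986 TPM in WT 1 and WT 2, a difference of -0.11 (SE 0.082). In both the WT libraries were above the KO libraries. Rpl11, the partner of Rpl5, was at 1827 and 1875 TPM in KO 1 and KO 2, against 1778 and 1911 TPM in WT 1 and WT 2, a difference of 0.0060 (SE 0.082) alone and -0.052 (SE 0.080) with copies. Rpl27a, mutated in sooty foot ataxia mice, was at 364 and 306 TPM in KO 1 and KO 2, against 347 and 371 TPM in WT 1 and WT 2, with overlapping groups. Rplp0, the base of the stalk, was at 783 and 414 TPM in KO 1 and KO 2, against 956 and 463 TPM in WT 1 and WT 2. Rplp0 was high in the libraries numbered 1 and low in those numbered 2, in both genotypes. Rplp1, which binds Rplp0, was at 3818 and 3543 TPM in KO 1 and KO 2, against 3595 and 4262 TPM in WT 1 and WT 2, with overlapping groups.

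Paralogs of standard ribosomal proteins were detected to very different degrees. Rpl22l1, the paralog of Rpl22, was at 613 and 605 TPM in KO 1 and KO 2, against 667 and 645 TPM in WT 1 and WT 2, lower in both KO libraries, a log2 difference of -0.11 (SE 0.066; limma adjusted p = 1.00). Rpl22, known for a role in lymphocyte development in mice, was at 1467 and 1505 TPM in KO 1 and KO 2, against 1480.4 and 1517 TPM in WT 1 and WT 2, with overlapping groups and a difference of -0.012 (SE 0.073). Relative to Rpl22 with its copies, Rpl22l1 stood at 41.7 and 40.2% in KO 1 and KO 2, against 44.99 and 42.4% in WT 1 and WT 2. Rps27l, the paralog of Rps27, was at 403 and 411 TPM in KO 1 and KO 2, against 428 and 401 TPM in WT 1 and WT 2 with a difference of -0.026 (SE 0.069), and relative to Rps27 with its copies at 13.5 and 13.98% in KO 1 and KO 2, against 13.2 and 12.6% in WT 1 and WT 2. The Rps27l groups overlapped on the TPM scale, while the ratio was higher in both KO libraries. Rpl7l1 was at 115 and 100.4 TPM in KO 1 and KO 2, against 119 and 98.6 TPM in WT 1 and WT 2, and Rpl7 at 2066 and 1914 TPM in KO 1 and KO 2, against 2094 and 2047 TPM in WT 1 and WT 2. The differences were -0.014 (SE 0.13) for Rpl7l1 and -0.058 (SE 0.084) for Rpl7. Rpl39l, known from male germ cells, was at 0.462 and 0.519 TPM in KO 1 and KO 2, against 0.490 and 0.475 TPM in WT 1 and WT 2. Rpl3l, known from striated muscle, was at 0.188 and 0 TPM in KO 1 and KO 2, against 0 and 0.0660 TPM in WT 1 and WT 2, and Rpl10l, known from male meiosis, was listed at 0 in all 4 libraries. These 3 were not tested.

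X-linked members were Rpl10, Rpl36a, Rpl39 and Rps4x. Rpl39, of the peptide exit tunnel, was at 1046 and 1059 TPM in KO 1 and KO 2, against 1169 and 1163 TPM in WT 1 and WT 2, without overlap, a log2 difference of -0.15 (SE 0.069; limma adjusted p = 1.00). Rps4x was at 2084 and 1968 TPM in KO 1 and KO 2, against 2331 and 1993 TPM in WT 1 and WT 2, with overlap, a difference of -0.090 (SE 0.11). The 4 Y-linked markers summed to 2.07 and 123 TPM in KO 1 and KO 2, against 30.3 and 3.04 TPM in WT 1 and WT 2, so the libraries differed in their share of male RNA within each genotype; its part in the X-linked values was not tested.

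Ribosomal genes that the symbol rule leaves out gave mixed values. Rack1, a scaffold on the small subunit, was at 1372 and 1384 TPM in KO 1 and KO 2, against 1547 and 1548 TPM in WT 1 and WT 2, a log2 difference of -0.17 (SE 0.071; limma adjusted p = 1.00). Rpsa, also of the small subunit, was at 1936 and 1878 TPM in KO 1 and KO 2, against 1984 and 2145 TPM in WT 1 and WT 2, and Rps27rt was lower as well. Rpl36al, a relative of Rpl36a, was at 771 and 777 TPM in KO 1 and KO 2, against 736 and 715 TPM in WT 1 and WT 2, higher in both KO libraries with a difference of 0.094 (SE 0.067), and Fau differed by 0.0041 (SE 0.061). Of the 6 genes 4 were lower, against 38.4% of all genes tested, and none was at an unadjusted p under 0.05.

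Lists of related genes were set beside the members, each with 0 genes passing the limma adjustment. For comparison, 38.4% of all genes tested were lower in KO, and the median log2 difference over all genes was 0.035. Translation factors and other genes with TOP mRNAs had 16 of 20 tested lower (median -0.052). Pabpc1, the poly(A)-binding protein, was at 952 and 975 TPM in KO 1 and KO 2, against 1126 and 1042 TPM in WT 1 and WT 2, a log2 difference of -0.17 (SE 0.078). Vim, an intermediate filament gene with a TOP mRNA that mesenchyme also expresses, was at 729 and 660.2 TPM in KO 1 and KO 2, against 581 and 539.8 TPM in WT 1 and WT 2. It was the only gene of that list at an unadjusted p under 0.05 in the fit, in the higher direction. Ribosome biogenesis genes had 28 of 47 lower (median -0.012), among them Nhp2, a snoRNP protein, at 126 and 134 TPM in KO 1 and KO 2, against 136 and 155 TPM in WT 1 and WT 2. Taf1d, of the RNA polymerase I initiation complex, was at 145 and 154 TPM in KO 1 and KO 2, against 139 and 128 TPM in WT 1 and WT 2, higher in KO. Mitochondrial ribosomal protein genes divided evenly, 39 lower and 39 higher of 78 (median 0.0016). Mrpl12 had the smallest p, at 106 and 103 TPM in KO 1 and KO 2, against 116 and 119 TPM in WT 1 and WT 2, followed by Mrpl44 at 39.9 and 36.5 TPM in KO 1 and KO 2, against 44.2 and 44.1 TPM in WT 1 and WT 2. Nuclear genes of oxidative phosphorylation, whose mRNAs are also short and abundant, had 41 of 72 lower (median -0.0064), with Ndufa7 at 301 and 284 TPM in KO 1 and KO 2, against 311 and 327 TPM in WT 1 and WT 2. Ndufb11 was at 181 and 175 TPM in KO 1 and KO 2, against 170.4 and 160.3 TPM in WT 1 and WT 2. The medians of these last 3 lists lay between that of the members and the 0.035 over all genes. These differences were not tested.

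Regulators of ribosomal protein synthesis had 10 of 19 tested lower, against 38.4% of all genes tested. Myc, a transcription factor that raises ribosome production, was at 9.99 and 9.32 TPM in KO 1 and KO 2, against 17.9 and 18.5 TPM in WT 1 and WT 2. Both KO libraries were close to each other and well below WT, with a log2 difference of -0.85 (SE 0.11; limma adjusted p = 1.00). Rps6kb2, an S6 kinase, was at 32.2 and 35.6 TPM in KO 1 and KO 2, against 26.8 and 30.5 TPM in WT 1 and WT 2, a difference of 0.24 (SE 0.11). Mycn was at 66.2 and 82.3 TPM in KO 1 and KO 2, against 73.95 and 69.6 TPM in WT 1 and WT 2. Mycl was at 21.9 and 28.8 TPM in KO 1 and KO 2, against 26.1 and 29.3 TPM in WT 1 and WT 2. Groups of these Myc relatives overlapped, with differences of 0.041 (SE 0.12) for Mycn and -0.13 (SE 0.16) for Mycl. Genes of the p53 response, which ribosome assembly defects can induce, had 10 of 19 tested lower, beside the same 38.4% of all genes. The 19 included Trp53 itself and Mdm4 besides p53 targets. Cdkn1a, a cell cycle inhibitor, was at 14.2 and 17.02 TPM in KO 1 and KO 2, against 20.02 and 25.9 TPM in WT 1 and WT 2, a difference of -0.52 (SE 0.17; limma adjusted p = 1.00). Bbc3, a pro-apoptotic gene, was at 9.71 and 8.75 TPM in KO 1 and KO 2, against 11.7 and 12.1 TPM in WT 1 and WT 2, a difference of -0.33 (SE 0.12; limma adjusted p = 1.00). Both were lower in each KO library than in either WT library.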

How the data were processed

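RNA levels were measured by RNA sequencing in 4 otic vesicle libraries, 2 per genotype. Libraries followed standard Illumina protocols, per the labels. The authors deposited TPM per gene. Salmon 0.9.1 and GRCm38 are named in the submitters' processing notes; the annotation release and the summing to genes are not stated there. TPM keeps no depth. Gene IDs were matched by number to GENCODE M21 (34652 of 34866 named, 32644 with the same version). The 14496 genes whose mean reached 1 TPM were tested with limma 3.58.1 (R 4.3.3) on log2(TPM + 1), KO minus WT, with genotype only, a mean-variance trend, two-sided p and Benjamini-Hochberg adjustment at 0.05. The fit was tested on simulated data. Fold changes understate those of low genes. The members and lists were chosen with earlier results of these data known. Named members were the 5 with the smallest p per direction, the 4 highest and lowest, paralogs with partners, X-linked genes and 10 with known phenotypes; from most other lists the genes with the smallest p were named. Some items are not reported here. Alternatives were other pseudocounts (0.1 and 5 TPM), filters, scalings, moderation, a replicate block, left-out libraries and summed copies; the limits for copies were set after seeing the data.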

Additional observations from a re-analysis of the deposited data

How the results depend on the processing

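No member passed the adjustment under any alternative, the median over members was below 0 under each, and their sum was below 0 under each alternative for which it was computed (not for other pseudocounts, filters, moderation, the block or quantile normalization). The count at an unadjusted p under 0.05 was 0 without the mean-variance trend, 1 with quantile normalization, 6 with a replicate block (1178 genes in all, against 507) and 1 to 3 when a library was left out. The replicate numbers come from the titles only and nothing says that they mark a shared litter; across genes, deviations from the group means correlated between same-numbered libraries at 0.42 over all genes and 0.46 over members, and the block changed no other call. The median log2 difference over members was -0.12 with median-of-ratios scaling, -0.044 with quantile normalization, -0.10 when scaled without members, -0.083 with pseudogenes named for a member summed, -0.083 with copies at 25% shared words and -0.099 to -0.076 when a library was left out. The log2 difference of the sum was -0.12 and -0.097 with the scalings named, and -0.093 to -0.080 without a library. Named members changed sign in 49 of 510 member settings, which involved 17 of 30 tested genes; the cause was not tested. With copies at 25% the differences were Rps27 -0.11, Rpl34 -0.039, Rpl21 -0.35, Rpl12 -0.085, Rpl35a -0.035, Rpl5 -0.13, Rpl3 -0.074 and Rpl11 -0.052. With copies at 80%, added like the 25% limit after seeing the data, they were Rps27 -0.11, Rpl34 -0.039, Rpl21 -0.35, Rpl12 -0.084, Rpl35a -0.035, Rpl5 -0.13, Rpl3 -0.074 and Rpl11 -0.052. With named pseudogenes they were Rpl34 -0.039, Rpl35a -0.035 and Rpl3 -0.074. Scaling turned Rpl5 (-0.0026) and Rpl11 (-0.029) with median-of-ratios, Rpl5 (-0.0058), Rpl22 (0.041) and Rpl24 (0.024) with quantile normalization, and Rpl11 (-0.0045) when scaled without members. Leaving out a library in turn gave ranges that crossed 0 for Rpl11 (-0.046 to 0.058), Rpl12 (-0.080 to 0.25), Rpl21 (-0.18 to 0.59), Rpl22 (-0.031 to 0.0062), Rpl27a (-0.23 to 0.019), Rpl3 (-0.89 to 1.39), Rpl34 (-0.11 to 0.46), Rpl35a (-0.14 to 0.37), Rpl38 (-0.19 to 0.035), Rpl5 (-0.12 to 0.19), Rpl7l1 (-0.15 to 0.12), Rplp0 (-0.75 to 0.30), Rplp1 (-0.21 to 0.033), Rps27 (-0.32 to 1.97), Rps27l (-0.071 to 0.020) and Rps4x (-0.20 to 0.023). The lone library of a genotype was then assumed to vary like the others. Depth is unknown from TPM, so no limit of detection is given.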

Other observations

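Several members and copies were set apart by replicate number in both genotypes. Rpl29, of the large subunit, was at 915 and 1504 TPM in KO 1 and KO 2, against 989 and 1548 TPM in WT 1 and WT 2, and its copies summed to 669 and 6.16 TPM in KO 1 and KO 2, against 691 and 10.6 TPM in WT 1 and WT 2. Rpl26 was at 2243 and 1466 TPM in KO 1 and KO 2, against 1959.7 and 1559 TPM in WT 1 and WT 2, and its copies summed to 1.68 and 802 TPM in KO 1 and KO 2, against 442 and 947 TPM in WT 1 and WT 2. Rps18 was at 2553 and 1474 TPM in KO 1 and KO 2, against 2188 and 1554 TPM in WT 1 and WT 2, and its copies at 3.93 and 1200.1 TPM in KO 1 and KO 2, against 674 and 1379 TPM in WT 1 and WT 2. For Rpl29 the copies were high in KO 1 and WT 1 and low in KO 2 and WT 2. For Rpl26 and Rps18 they were lowest in KO 1, with WT 1 between KO 1 and the libraries numbered 2. What sets these libraries apart was not tested. These genes were chosen after their values were seen.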
